A study of Saccharomyces cerevisiae with 16 samples.

Results

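Antisense transcripts opposite open reading frames (ORFs) were studied in strand-specific total RNA sequencing of Saccharomyces cerevisiae. The members were all table rows of the class AST (antisense transcript) named AS_ followed by a systematic ORF name beginning with Y, and made up 1320 of the 12670 rows. Of these, 1087 could be paired with an ORF-T row (the transcript of the ORF) of the same name. The study asked how RNA synthesis changes when the RNA polymerase II phosphatase Rtr1 or the nuclear exonuclease Rrp6 is lost. The libraries used here were 4 rtr1Δ rrp6Δ cultures (RTR1 KO RRP6 KO, replicates 1 to 4), 3 rrp6Δ cultures (RRP6 KO, replicates 1, 3 and 4) and 4 WT cultures (replicates 1 to 4), or 11 of the 16 samples. All strains were isogenic to BY4741, a haploid MATa laboratory strain, and were grown exponentially to an OD600 of 0.8. The rrp6Δ cells were a knockout collection strain, in which RTR1 was replaced by a kanamycin cassette to give the double deletion, so both deletion strains descend from 1 rrp6Δ strain.

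Yeast promoters are often bidirectional, and transcription can also start in the nucleosome-depleted regions at gene ends, so RNA polymerase II reads into many genes in the antisense direction. Much of this RNA is terminated early by the Nrd1-Nab3-Sen1 complex, which binds short RNA motifs and hands the transcript to the nuclear exosome, where the 3′ to 5′ exonuclease Rrp6 trims or degrades it. The same complex ends the transcripts of small nucleolar RNAs (snoRNAs), which the exosome then trims to length. Rtr1 removes phosphates from the C-terminal domain of RNA polymerase II, to which Nrd1 binds. At some loci, PHO84 and IME4 among them, antisense transcription is known to repress the sense gene.

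The antisense regions were the coding regions of ORFs with the strand reversed, without UTRs. The first 90 bases of 10 of them are shown 5′ to 3′ on the antisense strand, starting opposite the stop codon, because the results turn on these members. LIN1, CMC4, ADE16 and MMS2 face a snoRNA gene, NUT2 rose without one, the strands of TIS11 moved apart, SUL2 and GAL4 antisense fell, and FLC1 and DAK1 differed between the deletion strains. Capitals mark TCTT, the core of the Nab3 motif, and GTAA or GTAG, the core of the Nrd1 motif, in DNA letters. Sequences and positions are those of RefSeq assembly R64 (sacCer3).
LIN1 antisense (chrVIII:411384-411473, plus strand): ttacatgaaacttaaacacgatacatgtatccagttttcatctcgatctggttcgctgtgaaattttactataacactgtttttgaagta
CMC4 antisense (chrXIII:652594-652683, plus strand): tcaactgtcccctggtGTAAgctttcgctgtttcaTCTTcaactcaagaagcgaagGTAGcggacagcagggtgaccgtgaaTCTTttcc
ADE16 antisense (chrXII:199540-199629, plus strand): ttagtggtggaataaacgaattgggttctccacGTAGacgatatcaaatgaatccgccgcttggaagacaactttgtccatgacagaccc
MMS2 antisense (chrVII:346406-346495, plus strand): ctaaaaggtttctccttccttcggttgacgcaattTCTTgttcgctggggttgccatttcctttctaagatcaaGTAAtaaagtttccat
NUT2 antisense (chrXVI:878460-878549, minus strand): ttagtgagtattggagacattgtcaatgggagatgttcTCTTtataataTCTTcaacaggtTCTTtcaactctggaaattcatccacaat
TIS11 antisense (chrXII:415801-415890, plus strand): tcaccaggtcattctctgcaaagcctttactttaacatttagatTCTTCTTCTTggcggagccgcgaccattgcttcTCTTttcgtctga
SUL2 antisense (chrXII:326136-326225, minus strand): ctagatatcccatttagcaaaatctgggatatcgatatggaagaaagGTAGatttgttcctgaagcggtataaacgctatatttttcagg
GAL4 antisense (chrXVI:79711-79800, plus strand): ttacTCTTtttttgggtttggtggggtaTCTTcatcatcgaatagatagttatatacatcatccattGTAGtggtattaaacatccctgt
FLC1 antisense (chrXVI:135335-135424, minus strand): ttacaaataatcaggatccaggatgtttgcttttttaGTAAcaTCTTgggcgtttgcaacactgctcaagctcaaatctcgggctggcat
DAK1 antisense (chrXIII:135140-135229, minus strand): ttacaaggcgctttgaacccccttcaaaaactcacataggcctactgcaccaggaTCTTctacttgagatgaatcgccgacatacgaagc
These windows held 0 to 4 copies of TCTT, with 4 in TIS11, where copies share a T, 3 in NUT2 and 0 in LIN1, ADE16 and SUL2. LIN1, NUT2, TIS11 and DAK1 had no GTAA or GTAG in the window.

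Both motifs were counted on each strand over the whole gene, for all 5988 nuclear protein-coding genes. The members counted overlap no annotated gene on their antisense strand other than an antisense RNA (called clear here). On the antisense strand TCTT had a median of 11.9 copies per kb in 809 clear members that were higher in rrp6Δ than in WT, 8.59 in 205 clear members that were not, and 11.02 over all genes. On the sense strand these medians were 4.24, 5.42 and 4.50 copies per kb. For GTAA and GTAG together the antisense medians were 8.26, 7.71 and 8.05 copies per kb. The first 90 antisense bases held TCTT in 69.8% of the members that were higher, 61.0% of those that were not and 67.0% of all genes, and GTAA or GTAG in 50.7%, 42.9% and 46.9%. These are counts of letters and name no bound site, and since the sets were split by the antisense change no test was made.

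Library totals ran from 28765694 to 38578463 counts, of which the members took 3.82% to 4.15%. Levels are given as CPM, the counts of a row scaled to the effective library size. RRP6 sense RNA was at 0.201 to 0.729 CPM in rtr1Δ rrp6Δ and 0.265 to 0.412 CPM in rrp6Δ, against 113 to 194 CPM in WT. RTR1 sense RNA was at 1.08 to 1.47 CPM in rtr1Δ rrp6Δ, 13.2 to 16.3 CPM in rrp6Δ and 19.4 to 21.4 CPM in WT. The 6 a-cell markers MFA1, MFA2, STE2, STE6, BAR1 and AGA2 summed to 1518 to 1783, 1490 to 1694 and 1476 to 2099 CPM in rtr1Δ rrp6Δ, rrp6Δ and WT, and the 4 α-cell markers MF(ALPHA)1, MF(ALPHA)2, STE3 and SAG1 to 28.0 to 33.0, 29.8 to 34.2 and 29.3 to 33.6 CPM. In bulk RNA, fewer cells that make a transcript and less of it per cell cannot be told apart.

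Most antisense members were at higher levels in cells without Rrp6. In rtr1Δ rrp6Δ 801 of 1320 members were higher than in WT and 76 lower, and in rrp6Δ 828 were higher and 71 lower, by at least 1.5-fold at an adjusted p of at most 0.05 (edgeR quasi-likelihood test, Benjamini-Hochberg over all rows). The study kept antisense annotations because they changed in rrp6Δ cells, from libraries that include these, so the direction of these counts is not independent evidence. Over all rows 34.5% were higher and 6.55% lower in rtr1Δ rrp6Δ, and 36.2% higher and 7.7% lower in rrp6Δ. Over the 5836 ORF-T rows 3.89% were higher and 9.05% lower in rtr1Δ rrp6Δ, and 4.16% higher and 12.7% lower in rrp6Δ. The members were thus higher in 60.7% and 62.7% of cases, a larger share than over all rows, and lower in 5.76% and 5.38%, a smaller one. Of the 1735 AST rows opposite other units 40.2% and 44.0% were higher. In comparisons that share the WT libraries, 792 members were higher in both deletion strains and 42 were lower in both. By the shares given above, at most 34.5% of all rows can be higher in both and at most 6.55% lower in both.

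The members differed by whether an annotated gene lies on their antisense strand. RefSeq coordinates were found for 1045, of which 1017 were clear and 28 overlapped an annotated gene. Antisense RNAs in the annotation were not counted as overlaps, and 5 of the clear members lie over one, IME4, PHO84 and GAL4 among them. The 1017 clear members had a median level of 3.18 CPM in rtr1Δ rrp6Δ, 3.58 CPM in rrp6Δ and 0.852 CPM in WT. They took 0.780% to 0.834% of counts in rtr1Δ rrp6Δ libraries and 0.802% to 0.920% in rrp6Δ libraries, against 0.236% to 0.256% in WT libraries. Every deletion library was above every WT library in this share. In rtr1Δ rrp6Δ 784 were higher than WT and 52 lower (median log2 change 1.99), and in rrp6Δ 811 were higher and 27 lower (median 2.16). The median log2 change was -0.03 and -0.02 over all rows and -0.22 and -0.29 over ORF-T rows.

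The other 275 ORF names had no RefSeq record, so what lies on their antisense strand is not known here. Their median level was 15.1 CPM in rtr1Δ rrp6Δ, 13.5 CPM in rrp6Δ and 18.2 CPM in WT. Their median log2 change of -0.24 in rtr1Δ rrp6Δ and -0.34 in rrp6Δ was near that of the ORF-T rows, and 14 were higher in each strain, with 22 and 39 lower. The 28 members over an annotated gene had medians of 12.7, 12.2 and 14.9 CPM in rtr1Δ rrp6Δ, rrp6Δ and WT, and 3 were higher in each strain, with 2 lower in rtr1Δ rrp6Δ and 5 in rrp6Δ. The row opposite YGR018C lies over 316 bases of YGR017W and averaged 49.2 ± 3.56, 42.4 ± 3.76 and 70.2 ± 6.37 CPM (SD, n = 4, 3 and 4, as for all means given). In such rows antisense reads cannot be told apart from those of the annotated gene. In 8 members the counts equalled those of another row in every library, so some RNA is counted more than once.

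The largest rises lay opposite genes that face a snoRNA or snRNA gene. Past the stop codon of 22 clear members the next gene was a snoRNA or snRNA gene on the antisense strand, 26 to 495 bases away and pointing into the antisense region. All 22 were higher than WT in rtr1Δ rrp6Δ (median log2 change 4.91) and in rrp6Δ (median 4.86), with adjusted p of at most 4.06e-05 and 5.20e-05 (edgeR). They were 13 of the 20 largest rises of clear members in rtr1Δ rrp6Δ and 12 of 20 in rrp6Δ, and none was called between the deletion strains. Their sense rows were lower in 4 cases in rtr1Δ rrp6Δ and 6 in rrp6Δ, and higher in 0. Over all ORF-T rows 9.05% and 12.7% were lower, and 3.89% and 4.16% higher. The grouping by a facing snoRNA or snRNA gene was chosen after the values were seen. Members named for the largest rises, falls or strain differences were picked among rows whose compared groups did not overlap. Their lack of overlap on the antisense strand was therefore set by that choice.

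LIN1, a protein of the U5 snRNP, lies 66 bases from SNR71. Its antisense row stood at 918, 867, 894 and 881 CPM in rtr1Δ rrp6Δ and 641, 663 and 574 CPM in rrp6Δ, against 13.7, 12.4, 12.2 and 9.53 CPM in WT. The 3 genotypes did not overlap, and the double deletion was highest. The log2 change against WT was 6.22 ± 0.14 (adjusted p = 2.45e-11) in rtr1Δ rrp6Δ and 5.71 ± 0.14 (adjusted p = 5.23e-11) in rrp6Δ, where ± is the SE and p is from edgeR with Benjamini-Hochberg adjustment, as in all that follow. Between the deletion strains it was 0.51 ± 0.12 (adjusted p = 0.0806), under the fold minimum, and when replicate number entered the fit as a block the adjusted p was 0.00542. LIN1 sense RNA held 4.14, 4.84, 6.35 and 4.62 CPM in rtr1Δ rrp6Δ and 3.70, 4.23 and 3.65 CPM in rrp6Δ, against 11.9, 12.3, 14.8 and 13.5 CPM in WT, with every deletion library below every WT library. The sense log2 change was -1.40 ± 0.14 (adjusted p = 2.74e-06) in rtr1Δ rrp6Δ and -1.76 ± 0.16 (adjusted p = 9.84e-07) in rrp6Δ.

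CMC4, a small mitochondrial protein, lies 61 bases from SNR11. Its antisense row held 443, 409.6, 418 and 364 CPM in rtr1Δ rrp6Δ and 374, 459.5 and 404 CPM in rrp6Δ, against 10.4, 8.82, 9.28 and 5.99 CPM in WT. The deletion strains overlapped each other and both stood clear of WT, with log2 changes of 5.57 ± 0.18 (adjusted p = 2.83e-10) and 5.58 ± 0.18 (adjusted p = 3.62e-10). ADE16, an enzyme of purine synthesis facing SNR30, had the largest log2 rise of the clear members against WT in each strain. Its antisense row held 53.3, 77.9, 91.0 and 72.6 CPM in rtr1Δ rrp6Δ and 53.0, 81.0 and 64.5 CPM in rrp6Δ, against 0.919, 1.25, 0.565 and 0.506 CPM in WT. The lowest deletion library was far above the highest WT library, with log2 changes of 6.52 ± 0.29 (adjusted p = 4.14e-09) and 6.37 ± 0.30 (adjusted p = 6.05e-09).

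Several further members behaved alike. MMS2, which acts in DNA damage tolerance, faces SNR10 and had antisense levels of 107 ± 21.5, 109 ± 8.98 and 1.46 ± 0.484 CPM in rtr1Δ rrp6Δ, rrp6Δ and WT. VMA9, a subunit of the vacuolar proton pump, faces SNR43 and had 55.2 ± 2.44, 48.0 ± 3.67 and 0.882 ± 0.158 CPM. CUE5, a ubiquitin-binding protein, faces SNR62 and had 149 ± 6.80, 147 ± 2.59 and 3.00 ± 0.604 CPM. In each of these every deletion library was above every WT library, as the choice of the largest rises required. PMD1 and DAS1, facing SNR4 and SNR128, had 48.4 ± 5.65, 33.7 ± 2.37 and 0.821 ± 0.266 CPM and 43.8 ± 3.70, 39.4 ± 3.22 and 0.882 ± 0.217 CPM. The smallest rise of the 22 was opposite BRE5, a partner of the deubiquitinase Ubp3 that lies 495 bases from SNR49, at 2.34 ± 0.471, 1.66 ± 0.148 and 0.359 ± 0.178 CPM.

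The table also held rows named for these snoRNA genes with the suffix RT, which is not explained in the sources used here. Such a row existed for 21 of the 22, and 20 of the 21 were higher than WT in each deletion strain. Over all rows 34.5% were higher in rtr1Δ rrp6Δ and 36.2% in rrp6Δ. SNR71-RT averaged 506 ± 17.8, 328 ± 27.6 and 8.92 ± 1.06 CPM in rtr1Δ rrp6Δ, rrp6Δ and WT, and SNR30-RT 75.5 ± 16.4, 67.7 ± 14.5 and 0.780 ± 0.341 CPM. SNR30-RT was thus close to the antisense row of ADE16, and several other pairs were also close. In rtr1Δ rrp6Δ the antisense row of ODC2 averaged 172 CPM and SNR35-RT 173.5 CPM. For KTR2 and SNR42-RT these means were 153 and 149 CPM, and for GLO4 and SNR9-RT 157 and 142.5 CPM. Other pairs lay far apart there, such as DAS1 and SNR128-RT at 43.8 and 455 CPM. BRE5 and SNR49-RT were at 2.34 and 225 CPM. SNR10-RT averaged 0.792 ± 0.252, 0.978 ± 0.0593 and 1.36 ± 0.240 CPM in rtr1Δ rrp6Δ, rrp6Δ and WT and did not rise with the antisense row of MMS2. Whether the same reads were counted in both kinds of row was not tested. The rows of the snoRNAs themselves were higher in 17 of 21 cases in each strain, while SNR30, at 8593, 7741 and 7987 CPM, was not called. SNR84, facing RBA50, and SNR86, facing FAA4, were lower than WT in rrp6Δ, with log2 changes of -1.04 and -0.80, and were not called in rtr1Δ rrp6Δ.

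**Figure D1:**
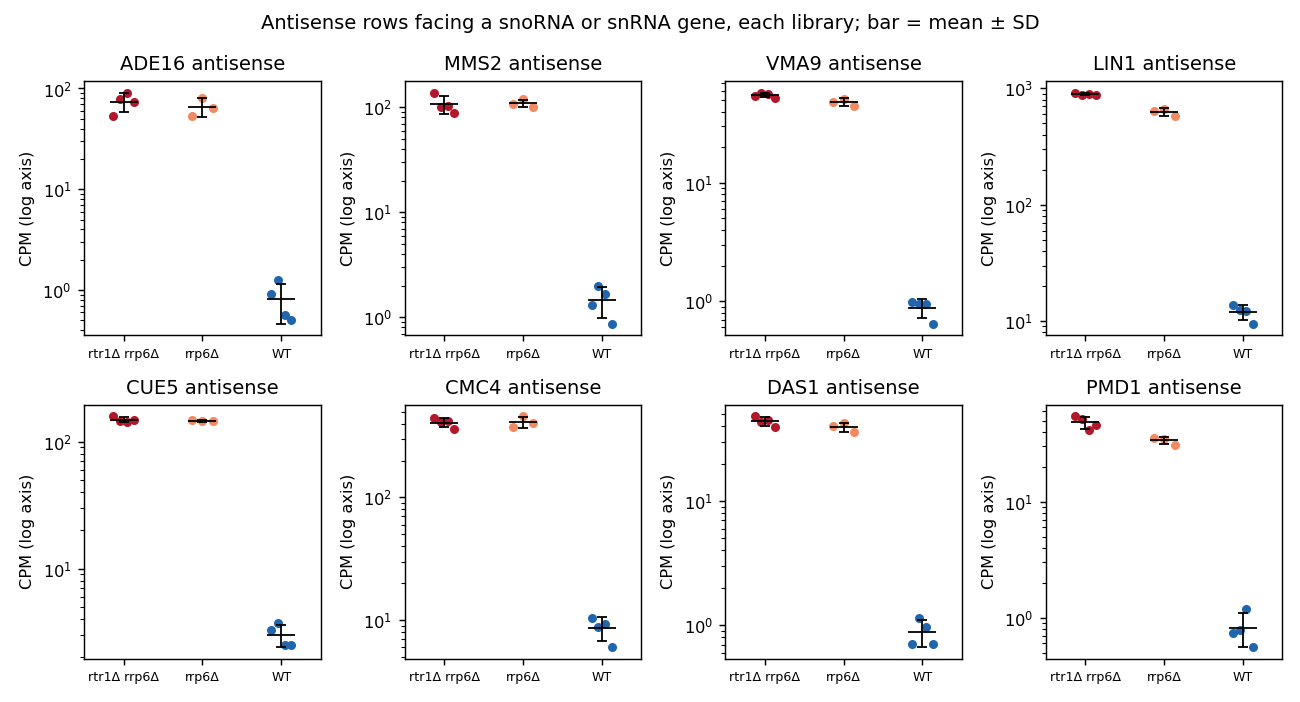
CPM on a log axis of 8 antisense rows that face a snoRNA or snRNA gene, with a point for each library and the mean ± SD as black bars, for rtr1Δ rrp6Δ (n = 4), rrp6Δ (n = 3) and WT (n = 4). In LIN1 the double deletion averaged 890.2 CPM, rrp6Δ 626 CPM and WT 12.0 CPM, and in each panel WT lay below both deletion strains.

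The other clear members differed with the direction of the next gene past the stop codon, a grouping also chosen after the values were seen. Where that gene ran in the same direction as the ORF (tandem, 719 members), so that its promoter lies before the antisense region, 638 were higher in rtr1Δ rrp6Δ and 655 in rrp6Δ, with medians of 2.24 and 2.43. Where a protein-coding gene ran towards the ORF (convergent) with over 200 bases between them, 79 and 83 of 133 were higher, with medians of 1.07 and 1.46. With 200 bases or less between them, 33 and 38 of 126 were higher and 16 and 9 lower, with medians of -0.10 and 0.03. Facing a tRNA or other RNA gene, 12 and 13 of 17 were higher. Per kb of region, the median level of tandem members was 3.31 CPM in rtr1Δ rrp6Δ, 3.53 CPM in rrp6Δ and 0.640 CPM in WT, and that of members with a near convergent gene 2.09, 2.43 and 1.79 CPM. The tandem arrangement was found at 80.8% of the 811 clear members higher in rrp6Δ, at 31.1% of the 206 that were not, and at 48.0% of 5979 nuclear protein-coding genes.

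**Figure D2:**
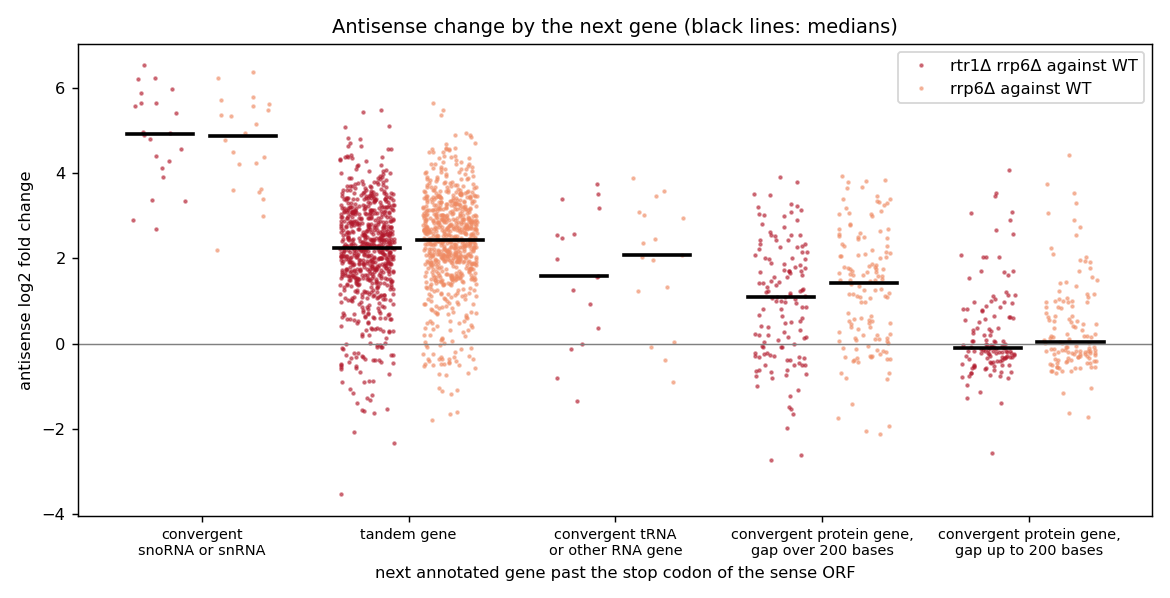
Log2 fold change of clear antisense members in rtr1Δ rrp6Δ and in rrp6Δ, each against WT, by the gene next to the stop codon of the sense ORF. Points are members, without RTR1, whose template is deleted in the double deletion, and black lines are medians, highest for a convergent snoRNA (4.91 and 4.86) and near 0 for a convergent protein gene within 200 bases.

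NUT2, a subunit of Mediator, lies before JIP5 in tandem. Its antisense row held 16.8, 12.4, 13.6 and 11.3 CPM in rtr1Δ rrp6Δ and 15.5, 14.8 and 11.8 CPM in rrp6Δ, against 0.353, 0.295, 0.376 and 0.225 CPM in WT. All deletion libraries were above all WT libraries, with log2 changes of 5.43 ± 0.21 (adjusted p = 1.18e-09) and 5.48 ± 0.21 (adjusted p = 1.49e-09). NUT2 sense RNA averaged 17.2 ± 1.19, 16.5 ± 1.07 and 20.7 ± 1.30 CPM and was not called. SWC5, of the SWR1 chromatin remodeller, lies before the snRNA gene LSR1 in tandem, and had the largest rise of the clear members that face no snoRNA. Its antisense row averaged 1.93 ± 0.142, 2.17 ± 0.509 and 0.0379 ± 0.0284 CPM, with 0 counts in WT replicate 1. SPR3, a septin made in sporulation, had an antisense row of 15.4 ± 2.65, 18.3 ± 2.46 and 0.448 ± 0.107 CPM, with log2 changes of 5.10 ± 0.20 (adjusted p = 1.47e-09) and 5.35 ± 0.21 (adjusted p = 1.54e-09).

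By gene list, antisense members rose in shares that stand beside the 77.1% in rtr1Δ rrp6Δ and 79.7% in rrp6Δ of all clear members. Opposite meiosis and sporulation genes 9 of 13 were higher and 1 lower in rtr1Δ rrp6Δ, and 10 higher and 0 lower in rrp6Δ (medians 1.58 and 1.71), including MEI4, needed for meiotic double-strand breaks, at 12.1 ± 1.13, 13.6 ± 2.68 and 1.22 ± 0.321 CPM in rtr1Δ rrp6Δ, rrp6Δ and WT. Opposite ribosomal protein genes, whose paralogs can share reads, 12 and 11 of 14 were higher (medians 1.92 and 1.99), with RPL36A antisense at 6.57 ± 0.929, 7.01 ± 0.980 and 0.602 ± 0.323 CPM. Opposite phosphate regulon genes 6 and 7 of 8 were higher, including the transporter PHO90 at 8.13 ± 0.815, 8.95 ± 0.822 and 0.650 ± 0.0992 CPM, and 1 was lower in each. Opposite termination and exosome genes 4 and 5 of 5 were higher (medians 2.66 and 3.16), among them MPE1, a cleavage and polyadenylation subunit, at 11.5 ± 1.07, 15.5 ± 0.287 and 1.73 ± 0.328 CPM. The 1 lower member of that list in rtr1Δ rrp6Δ was RTR1, whose template that strain lacks. The groups did not overlap WT in any of these 4 examples. Opposite pheromone response genes 3 of 4 were higher in each strain and 1 was lower in rrp6Δ. Opposite galactose and hexose genes 3 and 2 of 4 were higher, and opposite glycolysis and fermentation genes 1 of 3 in each strain, with 1 lower in each strain in both lists.

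Of 12 genes with a well-known antisense RNA or of special interest in the design, 5 had a member row, and these moved in different directions. PHO84, the high-affinity phosphate transporter, had antisense levels of 0.795, 0.575, 0.716 and 0.779 CPM in rtr1Δ rrp6Δ and 0.697, 1.30 and 0.689 CPM in rrp6Δ, against 1.77, 2.10, 2.16 and 1.55 CPM in WT. Every deletion library was below every WT library, a log2 change of -1.40 ± 0.23 (adjusted p = 0.000206) in rtr1Δ rrp6Δ and -1.08 ± 0.25 (adjusted p = 0.00228) in rrp6Δ. PHO84 sense RNA averaged 1013 ± 229, 1036 ± 177 and 1116 ± 196 CPM, log2 differences of -0.14 ± 0.18 (adjusted p = 0.513) and -0.11 ± 0.19 (adjusted p = 0.635). IME4, an mRNA methyltransferase needed to enter meiosis, had an antisense row of 39.5 ± 1.61, 41.5 ± 0.707 and 52.9 ± 7.82 CPM, with log2 differences of -0.42 ± 0.10 (adjusted p = 0.00329) and -0.35 ± 0.11 (adjusted p = 0.0145) that stayed under the fold minimum. With scaling to ORF-T rows alone they were -0.19 (adjusted p = 0.108) and -0.05 (adjusted p = 0.704).

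KCS1, an inositol polyphosphate kinase, lay opposite a row of 2.28 ± 0.796, 2.75 ± 0.835 and 0.730 ± 0.213 CPM in rtr1Δ rrp6Δ, rrp6Δ and WT, log2 changes of 1.65 ± 0.33 (adjusted p = 0.000998) and 1.91 ± 0.35 (adjusted p = 0.000424). KCS1 sense RNA was not called. SUR7, a plasma membrane protein of eisosomes, lay opposite a low row of 0.994 ± 0.341, 1.12 ± 0.476 and 0.520 ± 0.110 CPM, with log2 changes of 0.92 ± 0.34 (adjusted p = 0.0349) and 1.11 ± 0.36 (adjusted p = 0.0176). Without WT replicate 1, 2 or 4 or rtr1Δ rrp6Δ replicate 2 or 3 the first was 0.72 to 0.92 (adjusted p = 0.0673 to 0.107), and without rrp6Δ replicate 3 or 4 the second was 0.90 (adjusted p = 0.0951) or 0.89 (adjusted p = 0.0807). RTR1 antisense is given with the double deletion.

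A smaller set of antisense rows fell. SUL2, a sulfate permease, had antisense levels of 1.82, 2.93, 3.71 and 3.47 CPM in rtr1Δ rrp6Δ and 2.60, 5.21 and 4.69 CPM in rrp6Δ, against 14.1, 20.5, 18.4 and 19.7 CPM in WT. SUL2 sense RNA held 41.9, 58.8, 59.9 and 71.2 CPM in rtr1Δ rrp6Δ and 32.5, 61.6 and 66.1 CPM in rrp6Δ, against 24.1, 29.5, 23.7 and 28.1 CPM in WT. On both strands every deletion library lay to 1 side of every WT library, with antisense lower and sense higher. The antisense log2 change was -2.60 ± 0.25 (adjusted p = 1.85e-06) in rtr1Δ rrp6Δ and -2.12 ± 0.27 (adjusted p = 2.37e-05) in rrp6Δ, and the sense change 1.14 ± 0.21 (adjusted p = 0.000629) and 1.02 ± 0.23 (adjusted p = 0.00203). Altogether 13 pairs in rtr1Δ rrp6Δ and 18 in rrp6Δ had lower antisense with higher sense, of 58 and 43 with lower antisense, and 7 in each were clear pairs. These shares of 22.4% and 41.9% stand beside 22.1% and 23.9% with higher sense among pairs whose antisense was not called, and 3.89% and 4.16% of all ORF-T rows. Among clear pairs they were 7 of 48 (14.6%) and 7 of 26 (26.9%), beside 7.27% and 9.88% where antisense was not called.

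FLO1, a cell wall flocculin with near copies elsewhere in the genome, so that its reads are uncertain, had antisense levels of 0.460 ± 0.234, 1.72 ± 0.135 and 5.41 ± 1.37 CPM in rtr1Δ rrp6Δ, rrp6Δ and WT. Its sense levels of 11.6 ± 2.65, 10.1 ± 1.70 and 5.46 ± 0.847 CPM were higher than WT by 1.09 ± 0.18 (adjusted p = 0.000238) and 0.89 ± 0.19 (adjusted p = 0.00172) on the log2 scale. DUR3, a urea and polyamine transporter, likewise had lower antisense at 0.342 ± 0.131, 0.613 ± 0.141 and 2.00 ± 0.158 CPM and higher sense at 12.7 ± 1.52, 11.8 ± 1.17 and 7.23 ± 0.480 CPM. GAL4, the activator of galactose genes, had antisense levels of 3.61, 2.62, 2.21 and 2.41 CPM in rtr1Δ rrp6Δ and 4.34, 2.71 and 2.83 CPM in rrp6Δ, against 12.97, 10.4, 9.76 and 12.2 CPM in WT. The strains stood clear of WT, with log2 changes of -2.07 ± 0.19 (adjusted p = 1.58e-06) and -1.79 ± 0.21 (adjusted p = 1.27e-05), while GAL4 sense RNA differed by 0.11 ± 0.12 (adjusted p = 0.464) and 0.28 ± 0.13 (adjusted p = 0.0746), neither of them called.

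Antisense of FBA1, the aldolase of glycolysis, held 2.05, 1.60, 1.03 and 1.53 CPM in rtr1Δ rrp6Δ and 1.30, 1.93 and 1.17 CPM in rrp6Δ, against 2.62, 11.5, 3.36 and 2.14 CPM in WT. WT replicate 2 stood apart from the others, and without it the log2 changes of -1.66 ± 0.49 (adjusted p = 0.0121) and -1.74 ± 0.55 (adjusted p = 0.0151) were -0.80 (adjusted p = 0.0218) and -0.88 (adjusted p = 0.0189). Without rrp6Δ replicate 4 the change in rrp6Δ was -1.59 (adjusted p = 0.0554). FBA1 sense RNA had log2 changes of -0.42 ± 0.11 and -0.49 ± 0.12, under the fold minimum. The change of the antisense to sense ratio was not called (adjusted p = 0.101 and 0.122, edgeR). FBA1 antisense was at 0.0147%, 0.0146% and 0.0332% of sense counts in rtr1Δ rrp6Δ, rrp6Δ and WT. What share of this row was sense reads assigned to the wrong strand was not tested. Antisense of YMR321C, a near copy of SAM4 and so uncertain, averaged 0.866 ± 0.136, 1.40 ± 0.128 and 5.73 ± 2.12 CPM in rtr1Δ rrp6Δ, rrp6Δ and WT.

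The ratio of antisense to sense counts was taken for the 1087 pairs as a percentage, with 0.5 added to both counts. An ORF-T unit can be longer than the coding region, so the ratio compares counts and not molecules. In the 982 clear pairs its median was 8.99% in rtr1Δ rrp6Δ, 10.9% in rrp6Δ and 1.89% in WT. Antisense exceeded sense in 97 of these pairs in each deletion strain and in 40 in WT, and exceeded 10% of sense in 471, 519 and 184 pairs. The lowest ratio in WT was 0.0221%, opposite the glycolytic enolase gene ENO2, so at that pair at most this share of sense reads can have been assigned to the wrong strand.

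The change of the ratio was tested on the counts of both strands within each library, so that scaling between libraries does not enter. In rtr1Δ rrp6Δ 790 pairs had a higher ratio than in WT and 99 a lower one, and in rrp6Δ 823 and 90 (edgeR, adjusted over the 1087 pairs). These are 72.7% and 9.11% of the pairs in rtr1Δ rrp6Δ and 75.7% and 8.28% in rrp6Δ, a background that consists of the members. Of the 982 clear pairs 777 and 812 had a higher ratio and 45 and 33 a lower one. In the 90 pairs without a RefSeq record the median ratio was 435%, 323% and 1620% in rtr1Δ rrp6Δ, rrp6Δ and WT. Antisense exceeded sense in 75, 75 and 77 of these 90 pairs. A lower ratio than WT was found in 47 and 50 of them, against 11 and 8 with a higher one. In the 15 pairs over an annotated gene the medians were 98.0%, 83.1% and 194%.

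**Figure D3:**
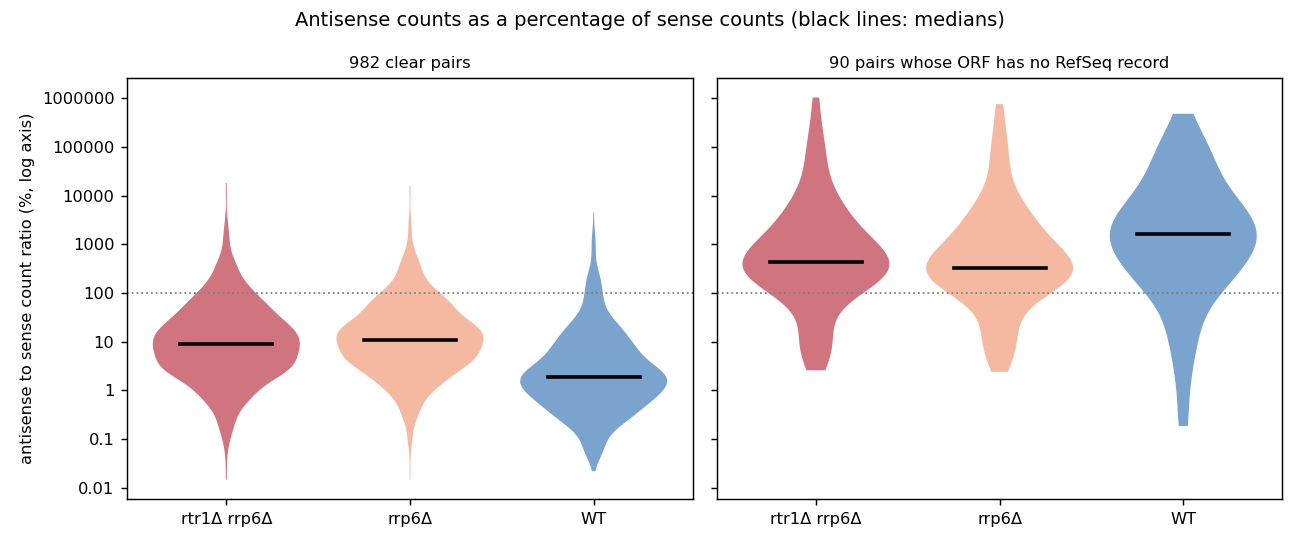
Antisense counts as a percentage of sense counts, on a log axis, for 982 clear pairs and 90 pairs whose ORF has no RefSeq record, in rtr1Δ rrp6Δ, rrp6Δ and WT. Violins show pairs, each averaged over the libraries of a genotype, black lines are medians (8.99%, 10.9% and 1.89% for the first set, 435%, 323% and 1620% for the second), and the dotted line marks equal counts.

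Among 175 clear pairs with at least 50 counts on both strands in every library, the 4 highest ratios in rrp6Δ all faced a snoRNA. LIN1 antisense was at 18253% ± 3317, 16164% ± 922 and 92.2% ± 19.6 of sense in rtr1Δ rrp6Δ, rrp6Δ and WT, and CMC4 antisense at 9849% ± 3388, 11336% ± 4113 and 126% ± 71.1. GLO4, a mitochondrial glyoxalase facing SNR9, was at 2358% ± 446, 3183% ± 705 and 83.5% ± 39.7, and POP6, a subunit of RNase P and RNase MRP facing SNR46, at 774% ± 50.4, 682% ± 80.7 and 22.8% ± 7.06. At POP6 antisense exceeded sense in every deletion library, and sense was the more abundant strand in every WT library. At LIN1, CMC4 and GLO4 antisense also exceeded sense in every deletion library, while the WT libraries lay on both sides of equal counts.

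The highest ratios in WT belonged to other pairs. MEP1, an ammonium permease, had antisense at 151% ± 17.5, 161% ± 37.8 and 413% ± 109.6 of sense. The log2 change of its ratio against WT was -1.43 (adjusted p = 2.95e-05) and -1.35 (adjusted p = 9.26e-05), with antisense at 16.4 ± 1.79, 16.7 ± 2.52 and 17.7 ± 2.78 CPM and sense at 10.96 ± 1.57, 10.5 ± 0.852 and 4.40 ± 0.739 CPM. The antisense row of MEP1 was not called, and its sense row was higher in both deletion strains. AMF1, an ammonium transporter, was at 270.3% ± 51.5, 383% ± 23.9 and 383% ± 63.3, RRT12, a protein of the spore wall, at 287% ± 81.0, 289% ± 59.1 and 239% ± 48.0, and PLN1, a lipid droplet protein, at 72.6% ± 33.8, 104% ± 44.5 and 215% ± 101. None of these 4 antisense rows rose in a deletion strain.

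Antisense rises were mostly not joined by a called sense change. Of 780 pairs with higher antisense in rtr1Δ rrp6Δ 118 had lower sense, 11 higher sense and 651 no sense call. In rrp6Δ 146 of 805 had lower sense, 12 higher sense and 647 no sense call. These were 15.1% and 18.1% with lower sense, beside 9.05% and 12.7% of all ORF-T rows, and their median sense change was -0.28 and -0.34, beside -0.22 and -0.29. Among pairs whose antisense was not called, 19 of 249 and 21 of 239 had lower sense. Higher sense was found in 1.41% and 1.49% of the pairs with higher antisense, beside 3.89% and 4.16% of all ORF-T rows. Where antisense was not called it was found in 22.1% and 23.9% of all pairs and 7.27% and 9.88% of clear pairs. Scaling to the ORF-T rows alone moves all rows by 0.23 and 0.29 on the log2 scale. With it 43 of 794 and 46 of 835 pairs with higher antisense had lower sense (5.42% and 5.51%), beside 3.72% and 3.62% of ORF-T rows lower. Both strands were then higher in 25 and 30 of these pairs (3.15% and 3.59%), beside 5.775% and 6.58% of ORF-T rows higher. Of 4 equal bins of clear pairs by WT sense level, in the lowest (0.177 to 21.1 CPM) 53 of 183 pairs with an antisense rise in rrp6Δ had lower sense, beside 16.7% of ORF-T rows in that range, and in the highest (94.5 CPM and over) 11.5%, beside 10.4%.

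TIS11, which targets mRNAs for decay when iron is scarce, had strands that moved apart. Its antisense row held 14.5, 11.6, 11.3 and 11.4 CPM in rtr1Δ rrp6Δ and 14.9, 16.1 and 14.6 CPM in rrp6Δ, against 1.10, 1.25, 1.25 and 0.675 CPM in WT. Its sense row held 36.3, 55.7, 44.7 and 33.7 CPM in rtr1Δ rrp6Δ and 30.1, 18.4 and 17.5 CPM in rrp6Δ, against 123, 115, 98.3 and 157 CPM in WT. No deletion library overlapped WT on either strand. The antisense log2 change was 3.52 ± 0.18 (adjusted p = 1.01e-08) in rtr1Δ rrp6Δ and 3.83 ± 0.19 (adjusted p = 7.88e-09) in rrp6Δ, and the sense change -1.53 ± 0.22 (adjusted p = 5.68e-05) and -2.49 ± 0.25 (adjusted p = 2.71e-06).

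GMC1, a gene of meiosis, had antisense at 14.3 ± 1.19, 12.2 ± 1.76 and 2.39 ± 0.162 CPM and sense at 4.21 ± 0.504, 6.26 ± 0.775 and 16.2 ± 1.77 CPM in rtr1Δ rrp6Δ, rrp6Δ and WT. ECM4, a glutathione transferase, had antisense at 5.10 ± 0.739, 5.18 ± 0.648 and 0.536 ± 0.125 CPM and sense at 11.4 ± 2.92, 9.99 ± 3.48 and 30.9 ± 11.8 CPM. NPY1, a NADH diphosphatase, had antisense at 4.32 ± 0.828, 4.04 ± 1.495 and 0.556 ± 0.249 CPM and sense at 21.1 ± 1.39, 30.3 ± 5.28 and 66.4 ± 1.04 CPM. At all 3 genes antisense was called higher and sense lower in both deletion strains, and no deletion library overlapped WT. ANB1, the hypoxic form of the translation factor eIF5A, had sense at 37.7 ± 3.94, 52.1 ± 4.28 and 109.8 ± 32.4 CPM, with antisense at 2.25 ± 0.460, 2.37 ± 0.324 and 0.344 ± 0.178 CPM, and YER175W-A, of unknown function, had sense at 0.972 ± 0.0742, 0.746 ± 0.110 and 4.24 ± 1.35 CPM, with antisense at 4.03 ± 0.699, 3.88 ± 0.987 and 2.21 ± 0.720 CPM. The antisense rise of YER175W-A in rrp6Δ was 0.81 ± 0.25 (adjusted p = 0.0124), and without rrp6Δ replicate 1 it was 0.60 (adjusted p = 0.0621).

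Both strands rose at few genes. YLR365W, of unknown function, had antisense at 4.55 ± 1.15, 4.22 ± 1.06 and 0.221 ± 0.138 CPM and sense at 2.05 ± 0.185, 2.72 ± 0.308 and 0.302 ± 0.0627 CPM in rtr1Δ rrp6Δ, rrp6Δ and WT, a sense log2 change of 2.75 ± 0.18 (adjusted p = 7.94e-08) and 3.15 ± 0.19 (adjusted p = 3.53e-08). YOR186W, also of unknown function, had antisense at 4.63 ± 0.798, 5.42 ± 0.890 and 0.776 ± 0.193 CPM and sense at 2.07 ± 0.560, 2.27 ± 1.09 and 0.842 ± 0.111 CPM. ARP10, an actin-related protein of dynactin, had antisense at 2.52 ± 0.254, 3.31 ± 0.609 and 0.851 ± 0.160 CPM and sense at 8.55 ± 1.15, 7.90 ± 1.85 and 3.73 ± 0.428 CPM. PIR5, of the cell wall, had antisense at 5.60 ± 0.213, 5.99 ± 0.282 and 1.84 ± 0.640 CPM and sense at 17.1 ± 5.24, 17.9 ± 4.76 and 7.91 ± 1.95 CPM. In all of these no deletion library overlapped WT on either strand. YRO2, a stress-induced membrane protein, had sense levels of 40.8, 144, 154 and 52.6 CPM in rtr1Δ rrp6Δ and 34.2, 151 and 109 CPM in rrp6Δ, against 12.2, 30.6, 30.1 and 20.6 CPM in WT, with replicates 1 and 4 of the double deletion and replicate 1 of rrp6Δ far below the rest of their strain.

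**Figure D4:**
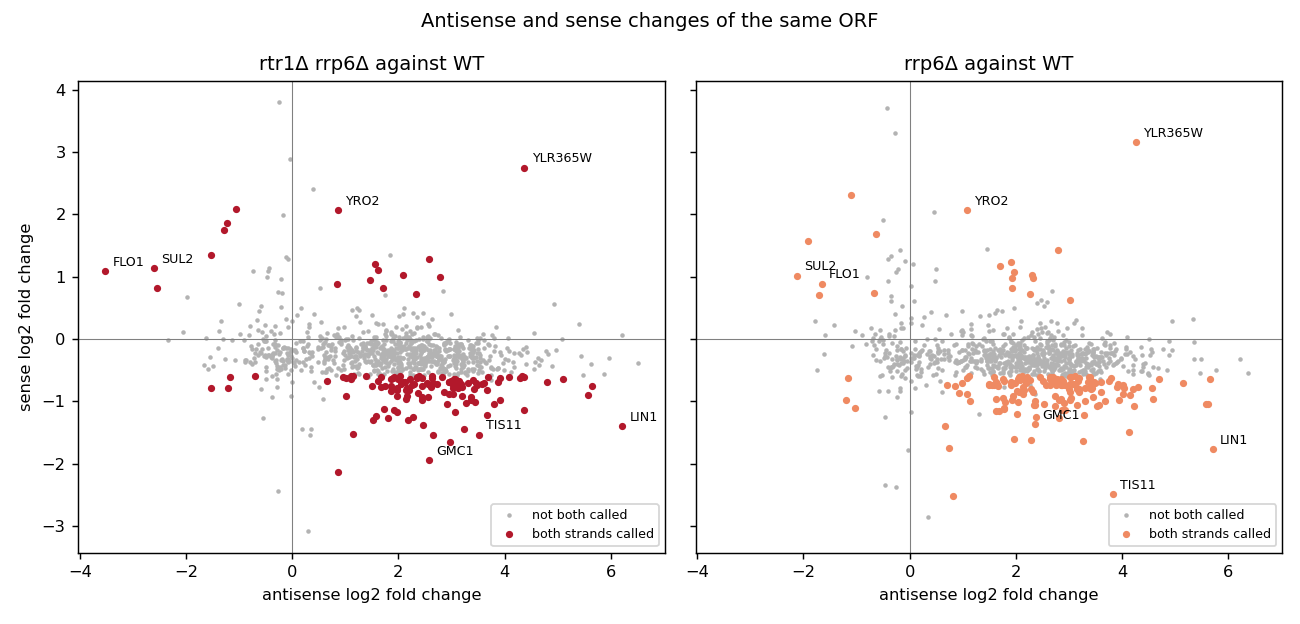
Log2 change of the sense ORF-T row against that of the antisense row for the clear pairs, in rtr1Δ rrp6Δ and in rrp6Δ, each against WT. Points are pairs, without RTR1 and coloured where both strands were called, and 116 and 145 of these clear pairs had higher antisense with lower sense.

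Without a replicate block few members differed between the deletion strains, and with it the number of lower members rose. In rtr1Δ rrp6Δ 2 members were higher than in rrp6Δ and 23 lower, all of them clear, with a median log2 difference of -0.08 over the members and -0.17 over clear members, beside 0.00 over all rows and 0.06 over ORF-T rows. Over all rows 0.142% were higher and 0.758% lower, and over ORF-T rows 0.0857% and 0.308%, beside 0.152% and 1.74% of the members. With the replicate number as a block, taken to pair cultures grown on the same day, 4 were higher and 105 lower, a set that includes the 23. In that fit 3.37% of all rows and 0.994% of ORF-T rows were lower, beside 7.96% of the members. In the fit without the block, the lower count was 12, 11 or 6 without rrp6Δ replicate 1, 3 or 4. Without rtr1Δ rrp6Δ replicate 1, 2, 3 or 4 it was 25, 10, 8 or 9. The higher count was 0 to 2 when a single library was left out. The ratio was higher in 5 pairs and lower in 21 (0.46% and 1.93% of pairs). With the block it was higher in 25 and lower in 174 (2.3% and 16.01% of pairs). All 174 were clear pairs, or 17.72% of the clear pairs, and 13 of the 25 were clear.

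RTR1 antisense had 0 counts in all 4 rtr1Δ rrp6Δ libraries, where its template is deleted, against 6.14, 4.87 and 4.16 CPM in rrp6Δ and 1.84, 1.38, 1.38 and 0.450 CPM in WT. The mean of rtr1Δ rrp6Δ was thus at least 237-fold lower than that of rrp6Δ, taking 3 counts over the group as the floor, and at least 59.0-fold lower than that of WT. In rrp6Δ the RTR1 antisense row was higher than in WT by 2.02 ± 0.36 (adjusted p = 0.00104) on the log2 scale. The row opposite EMP65, a neighbouring gene on chromosome V, was also lower in the double deletion, at 0.493 ± 0.130, 1.36 ± 0.178 and 0.105 ± 0.0375 CPM in rtr1Δ rrp6Δ, rrp6Δ and WT. What the cassette in place of RTR1 contributes to it was not tested.

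FLC1, a flavin adenine dinucleotide transporter, had antisense levels of 3.48, 2.62, 2.80 and 2.64 CPM in rtr1Δ rrp6Δ and 15.5, 8.87 and 10.8 CPM in rrp6Δ, against 1.59, 1.11, 1.44 and 0.731 CPM in WT. The double deletion lay between rrp6Δ and WT with no overlap, -2.03 ± 0.24 (adjusted p = 0.00684) against rrp6Δ on the log2 scale. Of the 22 lower members besides RTR1, 12 were, like FLC1, higher in rrp6Δ than in WT, and 7 stayed higher than WT in the double deletion. The 12 stand beside 79.7% of all clear members higher in rrp6Δ. The comparisons with WT share the deletion libraries by which these members were picked, so such splits are not independent of the choice. Of the 105 lower with the replicate block, RTR1 included, 82 were higher in rrp6Δ than in WT in the fit without the block. MAK10, a subunit of an N-terminal acetyltransferase, averaged 1.89 ± 0.324, 4.23 ± 0.603 and 0.175 ± 0.0331 CPM in rtr1Δ rrp6Δ, rrp6Δ and WT, and RAP1, a regulator of ribosomal protein genes and telomeres, 4.17 ± 0.439, 7.41 ± 1.04 and 3.54 ± 0.413 CPM. The other 10 were not higher in rrp6Δ than in WT, and all 10 were lower than WT in the double deletion. Among these, RLM1, a transcription factor of cell wall integrity, had 0.629 ± 0.123, 2.57 ± 0.977 and 1.90 ± 0.789 CPM, -2.03 ± 0.36 (adjusted p = 0.0243) against rrp6Δ, and YLR278C, a zinc cluster protein, had 6.90 ± 0.129, 12.0 ± 0.838 and 15.5 ± 1.46 CPM. FLO1 antisense differed from rrp6Δ by -1.87 ± 0.33 (adjusted p = 0.0226) on the log2 scale. With the replicate block RLM1 antisense was also called higher in rrp6Δ than in WT (adjusted p = 0.0194), where the fit without it gave 0.45 ± 0.33 (adjusted p = 0.254) on the log2 scale. The difference from rrp6Δ was no longer called for RLM1 without rrp6Δ replicate 1 or 4 or rtr1Δ rrp6Δ replicate 2, 3 or 4 (adjusted p = 0.0779 to 0.0919). For FLO1 it was not called without any 1 rrp6Δ replicate or without rtr1Δ rrp6Δ replicate 2 or 3 (adjusted p = 0.0618 to 0.0864).

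Higher in the double deletion were RGT2, a sensor of low affinity for glucose, and DAK1, a dihydroxyacetone kinase. RGT2 antisense held 24.3, 26.8, 23.2 and 25.3 CPM in rtr1Δ rrp6Δ and 11.4, 11.6 and 14.0 CPM in rrp6Δ, against 6.75, 8.95, 9.47 and 9.08 CPM in WT. All 3 genotypes were apart, 1.01 ± 0.13 (adjusted p = 0.00690) between the deletion strains, while RGT2 sense RNA averaged 24.9 ± 1.54, 27.0 ± 3.20 and 30.0 ± 1.97 CPM. DAK1 antisense held 3.31, 4.08, 3.43 and 3.29 CPM in rtr1Δ rrp6Δ and 1.90, 1.44 and 1.38 CPM in rrp6Δ, against 0.459, 0.492, 0.282 and 0.197 CPM in WT, again apart in all 3 genotypes, 1.17 ± 0.22 (adjusted p = 0.0281). Without rrp6Δ replicate 3 the RGT2 difference was 0.99 (adjusted p = 0.0529). Without rrp6Δ replicate 3 or 4 or rtr1Δ rrp6Δ replicate 2, 3 or 4 that of DAK1 was 1.08 to 1.20 (adjusted p = 0.0795 to 0.147).

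**Figure D5:**
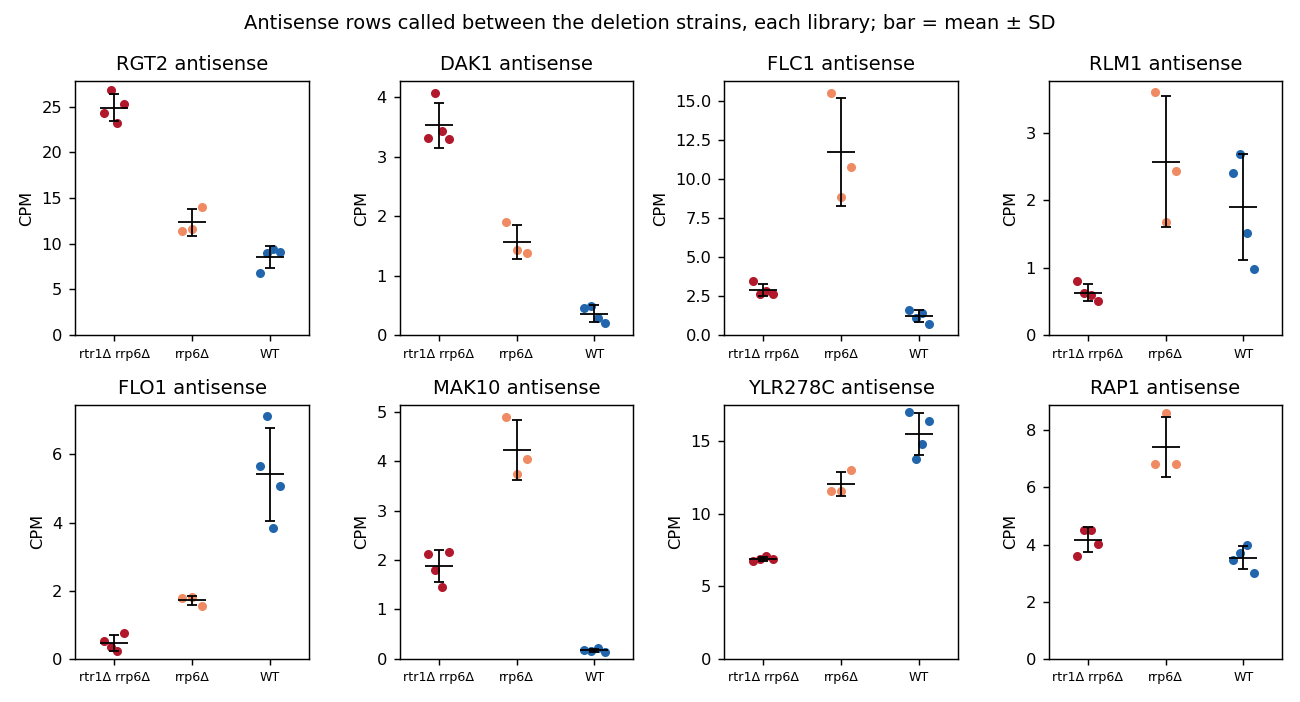
CPM on linear axes from 0 of 8 antisense rows that differed between the deletion strains, with a point for each library of rtr1Δ rrp6Δ, rrp6Δ and WT and the mean ± SD as black bars. FLC1 averaged 2.88, 11.7 and 1.22 CPM and RGT2 24.9, 12.3 and 8.56 CPM.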

How the data were processed

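Strand-specific libraries were made by the study from ribosomal RNA-depleted total RNA. Reads were aligned to sacCer3 with STAR 2.5.2b and counted with featureCounts (Subread 1.5.0). The handling of reads with several alignments is not given in the sources used here, nor is the version of edgeR the study used. The counts deposited by the authors, which their legend calls normalized, were whole numbers with totals that differed between libraries, and were used as raw counts. The deposited fold changes, p-values, FDRs, sums and averages of the authors' own comparisons were not used. Of 16 samples, 11 were analysed here, while 1 count column with an ambiguous genotype in its heading was not used. Spike-in RNA was not used.

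Counts were fitted in edgeR 4.0.16 (R 4.3.3) with TMM scaling and filterByExpr, which removed 0 rows, in 1 quasi-likelihood fit of 11 libraries without covariates, adjusted by Benjamini-Hochberg over 12670 rows. Calls needed an adjusted p no larger than 0.05 and a fold change of at least 1.5. Ratios were tested as the interaction of strand and group. Alternatives used RLE, upper-quartile or ORF-T scaling, DESeq2 1.42.0, limma 3.58.1, other filters and a replicate block. Scripts were tested on simulated data. Replicates were grown on different days with all genotypes of a replicate on the same day, so the numbers were taken to pair the samples. Deviations of same-numbered libraries correlated at 0.33 to 0.86 over all rows (10 pairs), and those of differently numbered ones at -0.72 to 0.42 (30 pairs). These ranges overlap, as rtr1Δ rrp6Δ replicate 2 correlated at 0.33 with WT replicate 2 and at 0.42 with rrp6Δ replicate 4. Named members were the documented list, the largest rises, falls, joint changes and ratios, and up to 2 pairs per gene list. Rises, falls, joint changes and ratios needed at least 50 counts and a clear member. Only rises and falls also needed groups that did not overlap. Some are left out for space. Members and lists were chosen with earlier results of these data known.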

Additional observations from a re-analysis of the deposited data

Results flagged for a closer look

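In 8 of 111 groups of 4 libraries, 1 library stood apart from the other 3 by Dixon's test, and chance alone marks about 1 in 20 groups. Antisense of KCS1 was at 1.09 CPM in rtr1Δ rrp6Δ replicate 1, with the others at 2.52 to 2.80 CPM. In the same library, antisense of TIS11 was at 14.5 CPM (others 11.3 to 11.6) and antisense of MEI4 at 13.8 CPM (others 11.3 to 11.6). Antisense of DAK1 was at 4.08 CPM in rtr1Δ rrp6Δ replicate 2 (others 3.29 to 3.43). In WT, antisense of FBA1 was at 11.5 CPM in replicate 2 (others 2.14 to 3.36) and antisense of PLN1 at 54.2 CPM in replicate 1 (others 39.6 to 41.3). In WT replicate 4, antisense of VMA9 was at 0.647 CPM (others 0.941 to 0.990) and antisense of KSS1 at 1.38 CPM (others 1.77 to 1.85).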

How the results depend on the processing

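Of 1974 recomputed changes of named members, 1935 kept their direction and side of the p threshold, 39 kept their direction but no longer passed it and 0 reversed. Of the 39, 27 were calls, and 12 concerned IME4, AMF1 and PLN1, which were under the fold minimum to begin with. Numbers of members higher against WT stayed within 1.5 times under every alternative run. Of the numbers that moved further, lower antisense (76 in rtr1Δ rrp6Δ) was 43 with ORF-T scaling, 116 with DESeq2 and 168 with no fold minimum. In rrp6Δ (71) it was 120 with RLE, 35 with upper-quartile and 27 with ORF-T scaling, 123 with DESeq2, 209 with no fold minimum and 27 among clear members. Lower ratios (99 and 90) were 64 and 58 with 50 counts on both strands and 45 and 33 among clear pairs. Higher antisense with lower sense (118 and 146) was 43 and 46 with ORF-T scaling, 185 and 243 with DESeq2 and 354 and 419 with no fold minimum. Both strands higher (11 and 12) was 25 and 30 with ORF-T scaling and 24 and 24 with no fold minimum. Lower antisense with higher sense (13 and 18) was 20 and 29 with DESeq2, 30 and 43 with no fold minimum, 7 and 7 among clear pairs and, in rrp6Δ, 11 with ORF-T scaling. Both strands lower (5 and 3) was 1 and 1 with ORF-T scaling, 11 and 12 with DESeq2 and 24 and 23 with no fold minimum. Fewer tested pairs and the lack of a fold minimum set their own counts, and for the rest the cause was not tested.

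Between the deletion strains, the replicate block, taken to pair the cultures of 1 day, gave 4 higher and 105 lower members (2 and 23 without it). It gave 25 higher and 174 lower ratios (5 and 21 without it). The block moved no other of these numbers by over 1.5 times and, besides RLM1 in rrp6Δ, changed no other antisense level call of a named member. Ratio and sense results of named members passed the threshold with it in some cases, such as the TIS11 ratio between the deletion strains (adjusted p = 0.0669 without the block and 0.00210 with it, edgeR). DESeq2 gave 52 lower members, and limma with a pseudocount of 0.5 gave 3 higher and 13 lower ratios. Leaving out 1 library gave 0 to 2 higher and 6 to 25 lower members, and 1 to 6 higher and 8 to 31 lower ratios. It gave 3 to 9 pairs with both strands lower in rtr1Δ rrp6Δ (9 without rtr1Δ rrp6Δ replicate 1 and 3 without its replicate 3). In rrp6Δ it gave 3 to 5 (5 without rrp6Δ replicate 1 or 4), and 11 to 19 pairs with both strands higher (19 without rrp6Δ replicate 1). In WT, 119 to 220 members had under 10 counts, which limits folds of low members.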
